A study of Mus musculus with 8 samples.

Results

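The miR-143 and miR-145 cluster is a pair of microRNA (miRNA) genes, and its mature products were taken as every mouse miRNA on the array named miR-143 or miR-145, with either arm of the hairpin. The array held 3 such products among its 611 mouse miRNAs. These were mmu-miR-143-3p and mmu-miR-145-5p, the arms that mainly act as regulators, and mmu-miR-145-3p, the other arm of miR-145. miR-143-3p and miR-145-5p were detected in these cells and were tested, and miR-145-3p was detected on none of the 8 arrays. No probe carried the name miR-143-5p.

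The cluster is best known from smooth muscle, where both miRNAs are abundant and favour the contractile over the proliferative state, miR-145 by lowering Klf4 and Klf5 and miR-143 by lowering Elk1. In cells that form cartilage, miR-145 is known to lower Sox9, the transcription factor that starts the chondrocyte programme. Both miRNAs are also common in fibroblasts and other mesenchymal cells. In the RefSeq annotation of the mouse assembly GRCm38.p6, Mir145a and Mir143 were direct neighbours, the long non-coding RNA gene Carmn overlapped the span of both, and the next genes on the outer sides were the non-coding Bvht and the protein-coding Il17b. The deposited files name another build, mm9, so no coordinates are printed here.

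The study asked how a mutation of Indian hedgehog that shortens the fingers changes the response of C3H10T1/2, a line of mouse mesenchymal cells which answers hedgehog signals and can turn towards cartilage. The WT group was incubated for 48 h with 750 nM wild type IhhN, the signalling part of the human protein made in bacteria. The MT group was incubated for 48 h with 750 nM of the same protein carrying E95K, and the control group is labelled as not induced with protein, over the same 48 h. Other label fields of the control samples also give 750 nM, and the induction label was followed here, on which every comparison with control rests. Each group had 2 RNA samples, and each WT sample was hybridized on 2 arrays, giving 4 WT, 2 MT and 2 control arrays. All cells came from this 1 line, and the labels do not say whether the 2 samples of a group were separate cultures. The p-values therefore measure only the spread between these samples, which may be technical. The test used, limma, also draws the spread of each miRNA towards that of all miRNAs tested. In RNA of whole cultures, fewer cells of a kind and less RNA per cell cannot be told apart.

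All 8 arrays lay on 1 slide. The WT arrays filled its first row, with replicate 1 on the left side (columns 1 and 2) and replicate 2 on the right (columns 3 and 4). In the second row the MT arrays lay on the left and the control arrays on the right, so that group and side cannot be told apart between MT and control. Between 104 and 150 mouse miRNAs were detected per array, and the spread of the negative control spots was 6.63 and 5.61 signal units on the first array of WT replicate 1 and on MT replicate 1, against 2.91 to 3.76 on the other arrays. Of 8 arms taken as markers of mesenchymal cells (miR-199a, miR-199b, miR-214, miR-21 and miR-152) 7 were detected, beside 162 of all 611 mouse miRNAs. Whether these are particular to mesenchymal cells was not tested. Of 40 arms that mark striated muscle, blood, epithelium, endothelium, liver, neurons or embryonic stem cells 0 were detected on any array.

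miR-145-3p gave no signal above background. None of its 154 spots (4 probes, outlier spots left out) was well above background, and its probe means lay between -4.11 and 3.54 signal units, on both sides of 0. It therefore has no level here and entered no comparison.

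miR-143-3p was measured on every array. Of its 153 spots 151 were well above background, and both of its probes were detected on all 8 arrays. The intensity of the brighter probe before any scaling was 152 and 104 signal units in the 2 control samples. It was 74.4 and 73.5 in the MT samples. It was 76.2 and 72.6 on the 2 arrays of WT replicate 1, and 78.6 and 63.4 on those of WT replicate 2. Both control arrays were thus brighter than every other array before scaling, and the MT and WT arrays overlapped.

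miR-145-5p lay closer to background. Of its 152 spots 74 were well above background, 65 of them from the brighter of its 2 probes, which gave 27.3 to 41.9 signal units over the 8 arrays, or 5.36 to 14.4 times the spread of the negative controls. That probe was not detected on MT replicate 1, one of the arrays with a wide negative control spread, where 30% of its spots were well above background. The dimmer probe was detected only on control replicate 1, and after scaling it lay at the floor, the lowest level counted as measured, in all MT and control samples. The level of miR-145-5p thus rests on 1 probe.

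**Figure D1:**
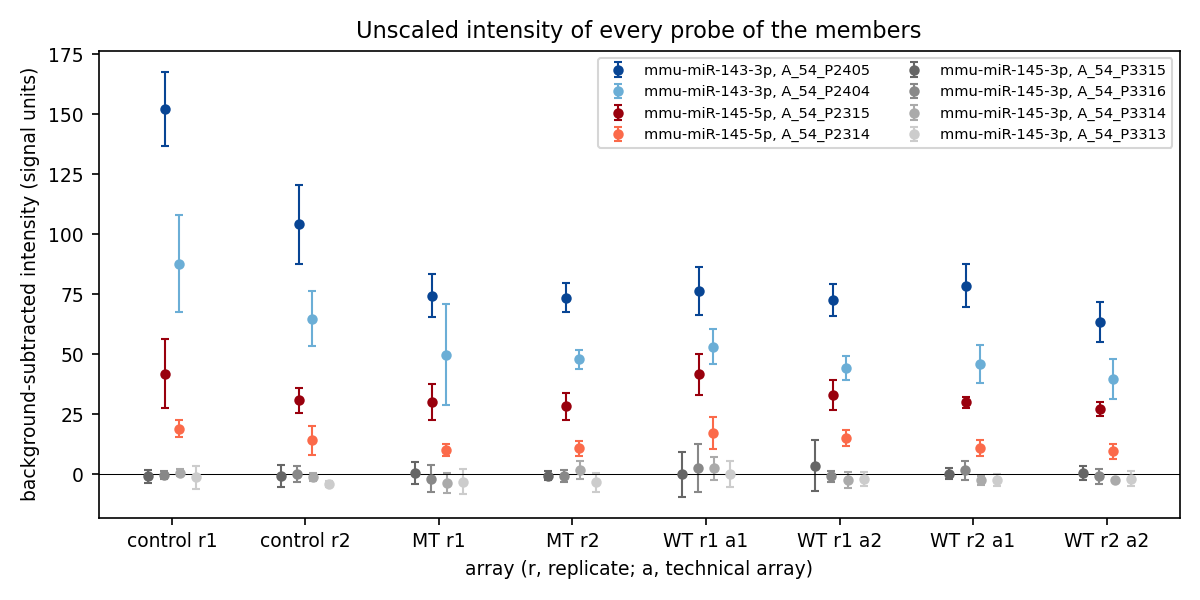
Background-subtracted intensity (signal units, linear axis, before scaling) of every probe of the 3 miRNAs on each of the 8 arrays, as the mean of the spots with their SD. The miR-143-3p probes stand apart on the control arrays, the brighter miR-145-5p probe stays between 27.3 and 41.9, and the miR-145-3p probes scatter around 0.

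The arrays differed in overall brightness, so each was scaled to a common 75th percentile, taken over the 174 probes that every array detected. That percentile was 1.41-fold higher in control than in WT and 1.58-fold higher in control than in MT. Unscaled, miR-143-3p was 1.74-fold brighter in control than in WT and 1.70-fold brighter than in MT, a larger gap than that of the percentile in both comparisons. Unscaled miR-145-5p was also brighter in control, 1.11-fold over WT and 1.23-fold over MT, a smaller gap than that of the percentile. All levels given from here on are log2 scaled intensities, and the 2 arrays of a WT sample were averaged first.

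After scaling, the level of miR-143-3p was highest in the control samples and lowest in the WT samples. It was 6.68 and 6.51 in control (mean 6.59 ± 0.12, SD, n = 2). It was 6.48 and 6.49 in MT (6.48 ± 0.01, SD, n = 2). It was 6.36 and 6.22 in WT (6.29 ± 0.09, SD, n = 2). No sample of one group lay within the range of another, although control replicate 2 and MT replicate 2 were only just apart.

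The scaled level of miR-145-5p ran the other way, lowest in the control samples, although before scaling it was brighter in control. It was 4.82 and 4.75 in control (mean 4.79 ± 0.05, SD, n = 2). It was 5.17 and 5.11 in MT (5.14 ± 0.04, SD, n = 2), where the first value is from the array on which the probe was not detected. It was 5.35 and 4.92 in WT (5.13 ± 0.31, SD, n = 2). Both protein-treated groups lay above control, and the 2 WT samples enclosed the MT samples.

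**Figure D2:**
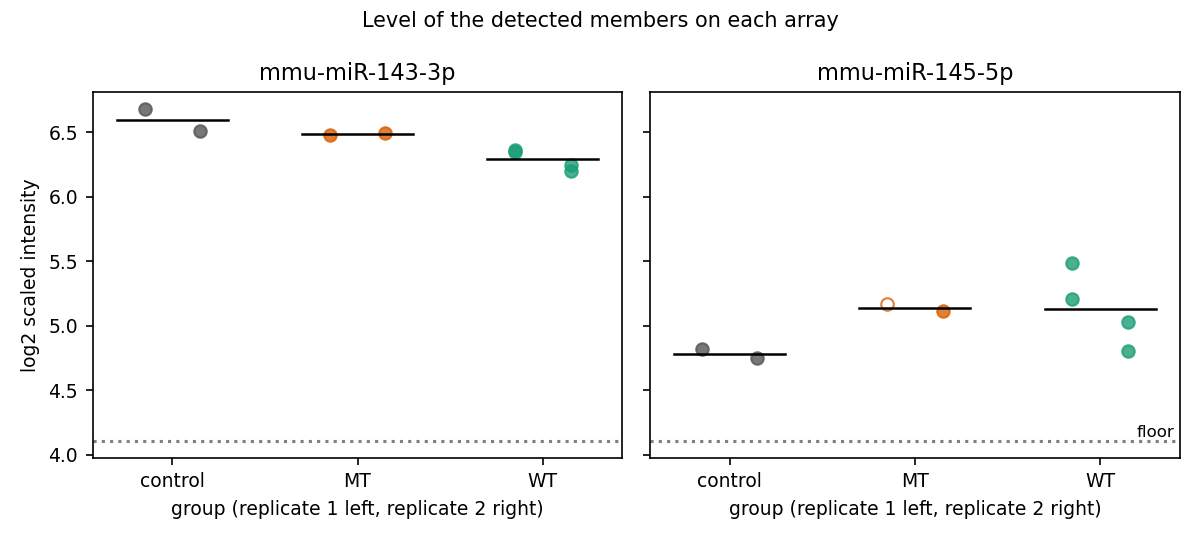
Level (log2 scaled intensity) of miR-143-3p and miR-145-5p on each array, by group, with replicate 1 on the left and replicate 2 on the right, group means as lines, and the floor dotted. The open circle is the MT array on which miR-145-5p was not detected. miR-143-3p steps down from control to WT, and the 4 WT arrays of miR-145-5p spread over more than the MT and control arrays.

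The precision of the 2 miRNAs differed most in WT. The paired arrays of a WT sample differed by 0.02 and -0.04 (log2, first minus second array) for miR-143-3p, and by 0.28 and -0.22 for miR-145-5p. The SD of miR-145-5p between the WT samples, 0.31, was above the median SD of 0.13 over all 142 miRNAs tested, and 12.7% of them had a larger one. The highest miR-145-5p value, 5.49, came from the first array of WT replicate 1, the array with the widest negative control spread, and the part of that spread in the value was not tested.

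Wild type protein against no protein was compared first. miR-143-3p differed by -0.30 (log2, WT minus control, SE 0.15, 95% interval -0.66 to 0.05), which is 1.24-fold higher in control. Its adjusted p in limma was 0.210, so the difference did not pass the threshold. miR-145-5p differed by 0.35 (SE 0.18, 95% interval -0.09 to 0.78), which is 1.27-fold higher in WT, with an adjusted p of 0.229 in limma, and did not pass either. limma called 0 of the 142 miRNAs (0%) after adjustment in this comparison, and 40 (28.2%) had an unadjusted p under 0.05, neither of the 2 cluster members among them.

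The samples of WT and control did not overlap for either miRNA, but that was common. Of the 142 miRNAs, 25.4% were lower in both WT samples than in both control samples, as miR-143-3p was, and 39.4% were higher in both, as miR-145-5p was. In size, 53.5% of the miRNAs differed by more than miR-143-3p and 45.8% by more than miR-145-5p. The median of all miRNAs tested was 0.11, and relative to it miR-143-3p stood at -0.41 and miR-145-5p at 0.24. Leaving out WT replicate 1 brought the miR-145-5p difference to 0.13, and leaving out WT replicate 2 brought it to 0.56. On the right side of the slide alone, where WT replicate 2 and both control samples lay, the differences were -0.37 for miR-143-3p and 0.13 for miR-145-5p. These are the same samples as without WT replicate 1, so this is not a separate check.

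The mutant protein against no protein gave a smaller difference in miR-143-3p, -0.11 (log2, MT minus control, SE 0.15, 95% interval -0.47 to 0.25, adjusted p = 0.620 in limma). miR-145-5p was 0.36 higher in the mean (SE 0.18, 95% interval -0.08 to 0.79), or 1.28-fold, with an adjusted p of 0.189 in limma. Neither passed the threshold. With a term for slide side, miR-145-5p stood at -0.08 and miR-143-3p at -0.24. With the 75th percentile taken over all mouse probes they stood at -0.36 and -0.83. The direction of miR-145-5p thus did not hold in either setting. That percentile spans all 1759 mouse probes, while 449 of the 611 mouse miRNAs were detected on no array. Relative to the median of all miRNAs tested, -0.51 under that percentile, miR-145-5p stood at 0.15. With the side term it stood at -0.22 relative to the median. limma called 0 miRNAs (0%) after adjustment here, and 56 (39.4%) had an unadjusted p under 0.05.

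As in the first comparison, the samples did not overlap. Of all miRNAs tested, 26.8% were lower in both MT than in both control samples, as miR-143-3p was, and 40.8% were higher, as miR-145-5p was. A larger difference than that of miR-143-3p was found in 84.5% of the miRNAs, and a larger one than that of miR-145-5p in 52.1%. Relative to the median of all miRNAs tested (0.13), miR-143-3p stood at -0.24 and miR-145-5p at 0.22. The control samples are shared with the WT comparison, so the like direction in both is not independent.

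WT and MT were then compared directly, the question being whether the mutation alters the response. miR-143-3p differed by -0.20 (log2, WT minus MT, SE 0.15, 95% interval -0.55 to 0.16), with an adjusted p of 0.990 in limma. Both WT samples were below both MT samples, as they were for 17.6% of all miRNAs tested, and 22.5% differed by more. miR-145-5p differed by -0.01 (SE 0.18, 95% interval -0.44 to 0.43), with an adjusted p of 1 in limma and overlapping samples. That interval reaches from 0.736-fold to 1.35-fold (WT over MT), so a like level in the 2 groups was not shown. limma called 0 miRNAs (0%) after adjustment and 0 had an unadjusted p under 0.05. On the left side alone, where WT replicate 1 and both MT samples lay, the differences were -0.13 for miR-143-3p and 0.21 for miR-145-5p.

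**Figure D3:**
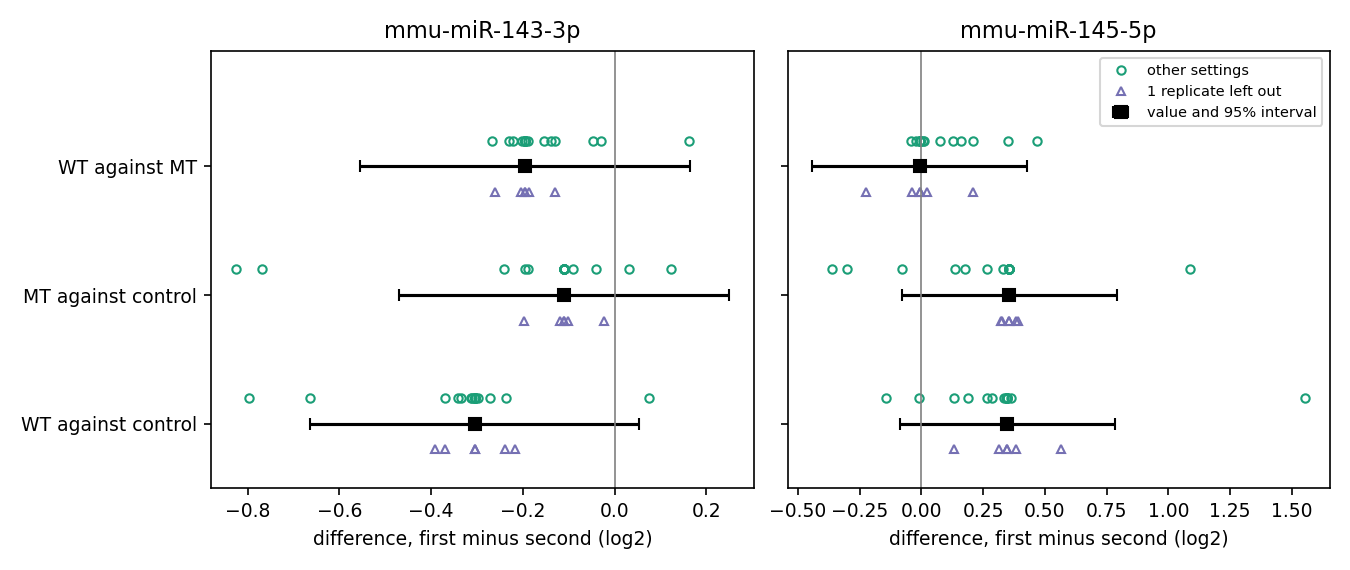
Difference (log2, first group minus second) of miR-143-3p and miR-145-5p in the 3 comparisons, with the 95% interval of the limma fit (squares), and the same difference under other processing settings (circles) or with 1 replicate left out (triangles). All 6 intervals include 0, and the far right circles of miR-145-5p are those from the total gene signal.

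The second probe of miR-143-3p gave a further reading of the same RNA. Over the 6 RNA samples it correlated with the brighter probe at r = 0.86, as a description of probes that share the same arrays. Its differences were -0.24 (WT minus control), 0.03 (MT minus control) and -0.27 (WT minus MT). The lower WT level thus appeared in both probes, and the small difference between MT and control did not keep its sign.

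The sign of some differences turned with the processing. With normexp background correction in place of the deposited subtraction, the difference of miR-143-3p from control was 0.08 in WT and 0.12 in MT. This correction added an offset of 50 signal units, above the 27.3 to 41.9 of the brighter miR-145-5p probe. The part of the offset in these values was not tested. Without any scaling the difference of miR-143-3p from control was -0.80 and -0.77 and passed the threshold in both, with adjusted p = 0.0432 and 0.0338 in limma. That setting called 28 of the 142 miRNAs between WT and control and 46 between MT and control. The median of all miRNAs tested then lay at -0.32 and -0.50. miR-145-5p then stood at -0.14 and -0.30, below control. Each difference was also measured from the median of all miRNAs tested under the same setting. Only settings that move the value were counted, and the setting without a filter was left out. miR-143-3p was below that median in 18 of 18 between WT and control, in 16 of 16 between MT and control and in 19 of 19 between WT and MT. miR-145-5p was above that median in 14 of 16 settings between WT and control, the total gene signal described below among them. The exceptions were the fit without WT replicate 1 and the fit with a term for slide side. Both give the same difference, 0.13, that of WT replicate 2 from control. Between MT and control miR-145-5p was above in 13 of 14, the exception again being the term for slide side. A median by definition leaves as many miRNAs below as above it, so either side is common. All settings reuse the same 6 RNA samples, so these counts are not repeated evidence.

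Because both miRNAs are read on the same array, dividing an array by any single value leaves the gap between them as it was. The gap was taken as the log2 level of miR-145-5p minus that of miR-143-3p in one sample, a measure chosen after the values were seen. Its size depends on the probes and carries no meaning of its own, so only its change between samples is used. The gap was -1.86 and -1.76 in the control samples, -1.31 and -1.38 in the MT samples, and -1.01 and -1.31 in the WT samples. The first MT value is from the array on which miR-145-5p was not detected. Every protein-treated sample was thus above both control samples, and the WT and MT samples overlapped. The place above control follows from the levels already given, where miR-143-3p was lower and miR-145-5p higher than control without overlap. It is therefore no further support, and how often other pairs of miRNAs do the same was not counted.

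The gap changed by 0.65 (log2) from control to WT and by 0.46 from control to MT, and differed by 0.19 between WT and MT. In an exact two-sided permutation test over samples these gave p = 0.333, 0.333 and 0.667 (n = 2 per group), where 0.333 is the smallest p that 2 against 2 samples allow. As the samples were already known not to overlap with control, the first 2 p were fixed at that value before the test. The test therefore cannot decide on these changes. Among the other settings that move the value, the total gene signal aside, the change ranged from 0.27 to 0.80 from control to WT (10 settings) and from 0.14 to 0.52 from control to MT (8 settings), all on the same samples. The lowest value in both came from normexp correction with its offset of 50 signal units. The gap was not computed with a term for slide side or with the mean of all probes. Quantile normalization, which is not a single divisor, gave 0.61 and 0.33, and 0.28 between WT and MT, whose samples then did not overlap. On the right side of the slide alone, the change from control to WT was 0.50, the same as without WT replicate 1. MT and control shared no side, so no such value could be given for MT. Across the 6 RNA samples the levels of the 2 miRNAs gave r = -0.35 and rho = -0.60, as a description only.

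**Figure D4:**
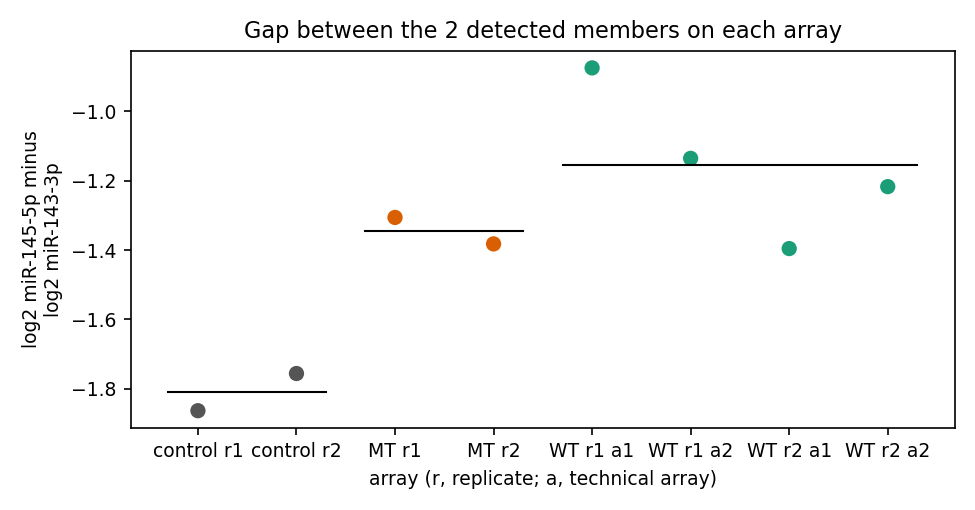
Gap between the members (log2 level of miR-145-5p minus log2 level of miR-143-3p) on each of the 8 arrays, with group means as lines. The control arrays lie lowest, at -1.86 and -1.76, and the MT and WT arrays overlap above them.

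The files also hold a total gene signal, which Feature Extraction sums over the probes of a miRNA, and for miR-145-5p this column did not hold its own probes alone. On 4 arrays the total was 113 (first array of WT replicate 1), 105 and 88.1 (the arrays of WT replicate 2) and 101 (MT replicate 1), where its own probes summed to 39.0, 27.7, 24.8 and 26.4. On each of these 4 arrays the total equalled the total of miR-143-3p plus the total of the brighter miR-145-5p probe, to within 0.01 signal units. That sum leaves out the dimmer miR-145-5p probe. On the second array of WT replicate 1, on MT replicate 2 and on both control arrays, the total equalled the sum of its own probes, 32.2, 25.9, 40.3 and 29.8. No control array was thus among those with the higher total.

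Read from that column, miR-145-5p would differ by 1.55 (log2, WT minus control) and 1.09 (MT minus control), against 0.35 and 0.36 from the probe itself. The total of miR-143-3p equalled the sum of its own probes on all 8 arrays. Totals that differed by over 1% from the sum of their probes were found for 44 to 56 miRNAs per array, among the 132 to 181 that Feature Extraction marked as detected. The differences reported here come from the probe intensities and not from the totals.

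**Figure D5:**
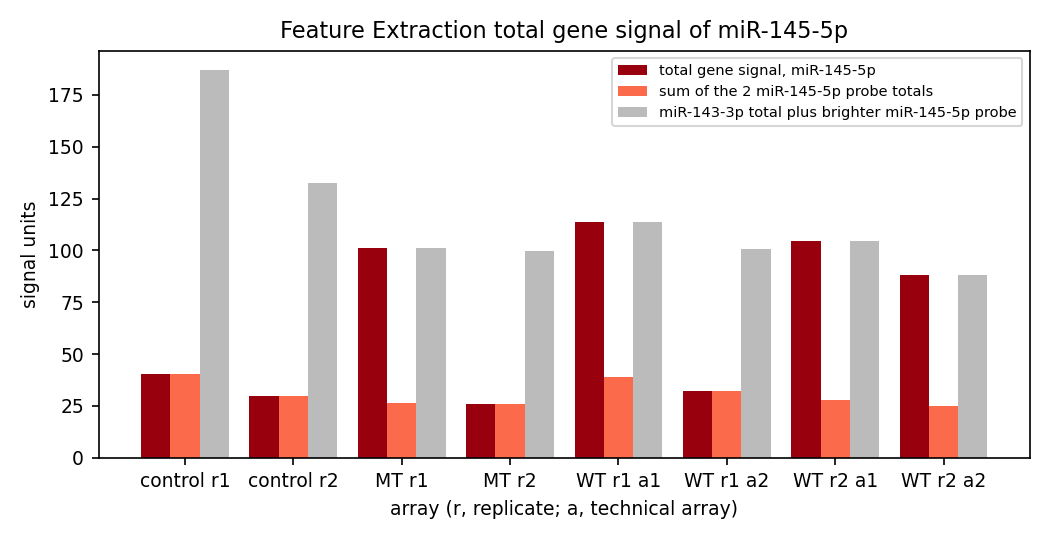
Total gene signal of miR-145-5p on each array (signal units, bars from 0), beside the sum of its own 2 probe totals and beside the miR-143-3p total plus its brighter probe. On 4 arrays the total matches the grey bar and on the other 4 it matches the sum of its own probes.

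Other miRNAs with known roles in muscle were described as a list (members excluded, written from general knowledge). Of its 43 arms on the array 21 were detected and tested, and limma called 0 of them after adjustment in any comparison. At an unadjusted p under 0.05, 1 was higher and 3 lower in WT than in control, against 17.6% and 10.6% of all miRNAs tested, and 2 were higher and 5 lower in MT than in control, against 26.8% and 12.7%. The median difference of the list was 0.08 (WT minus control), -0.09 (MT minus control) and 0.06 (WT minus MT), beside 0.11, 0.13 and -0.04 over all miRNAs tested. miR-21-5p, known for promoting smooth muscle growth, differed by -0.89 in WT and -0.71 in MT against control (adjusted p = 0.139 and 0.106 in limma). miR-221-3p and miR-222-3p, which favour the proliferative state, differed by 0.18 and 0.21 in WT and by 0.10 and 0.15 in MT. The smallest p of the list beside that of miR-21-5p were those of miR-29b-3p, which lowers collagen mRNAs (-1.06 in WT and -0.89 in MT against control), miR-328-3p (0.51 in WT and 0.70 in MT) and miR-130a-3p (-0.55 in MT). Between WT and MT the smallest p were those of miR-24-1-5p (0.35), miR-328-3p (-0.19) and miR-24-2-5p (0.18).

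The cartilage and Sox9 list, which shares some miRNAs such as miR-29b with the muscle list, held 42 arms on the array, of which 23 were detected and 22 tested, again with 0 called by limma after adjustment. At an unadjusted p under 0.05, 5 were higher and 2 lower in WT than in control, against 17.6% and 10.6% of all miRNAs tested. In MT against control 6 were higher and 2 lower, against 26.8% and 12.7%, and 0 differed between WT and MT. Its median difference was 0.15 (WT minus control), 0.06 (MT minus control) and -0.01 (WT minus MT), beside 0.11, 0.13 and -0.04 over all miRNAs tested. miR-140, the miRNA most typical of cartilage, differed from control by 0.31 (WT) and 0.33 (MT) for its 3p arm and by -0.20 and -0.26 for its 5p arm. The smallest p beside that of miR-29b-3p were those of miR-574-5p (0.75 in WT and 0.77 in MT), miR-92a-3p (0.47 in WT) and miR-181a-5p (0.80 in MT). Between WT and MT they were those of miR-181a-5p (-0.31), miR-574-3p (-0.28) and miR-199a-5p (-0.20).

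The miRNAs whose levels ran most like the cluster members were found by Pearson correlation over the 6 RNA samples, among the 140 other miRNAs tested, as a description. Samples of 3 groups share arrays and scaling in this measure. Nearest to miR-145-5p were miR-193b-3p and miR-125b-5p (r = 0.94 each), miR-34b-3p (0.93), and let-7d-5p and miR-99b-5p (0.91 each), all detected on all 8 arrays. For miR-193b-3p the level was 7.09 and 7.05 in control, 7.86 and 7.72 in MT, and 7.85 and 7.45 in WT. Control was lowest and the WT pair wide, as for miR-145-5p. Nearest to miR-143-3p were miR-195-5p (r = 0.77, detected on 2 arrays), miR-146a-5p (0.74, on 5), miR-152-3p (0.73, on 8), miR-29b-3p (0.65, on 8) and miR-155-5p (0.63, on 5), all further from it than the nearest of miR-145-5p were. For miR-152-3p the level was 6.73 and 6.49 in control, 6.17 and 6.42 in MT, and 6.05 and 6.29 in WT.

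RefSeq mature sequences (GRCm38.p6) were matched for 497 of the 611 mouse miRNAs by name, and for 0 of the 3 cluster members. The sequences of the nearest miRNAs that were detected on all 8 arrays are shown, to see whether miRNAs of like pattern share a seed, the stretch that pairs with target mRNAs (bases 2 to 8, in capitals).
miR-193b-3p: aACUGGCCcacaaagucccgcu
miR-125b-5p: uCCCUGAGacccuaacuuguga
miR-34b-3p: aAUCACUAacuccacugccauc
let-7d-5p: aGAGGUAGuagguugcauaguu
miR-99b-5p: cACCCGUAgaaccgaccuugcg
miR-152-3p: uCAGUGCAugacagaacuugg
miR-29b-3p: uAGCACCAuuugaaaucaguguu
The first 5 run with miR-145-5p and the last 2 with miR-143-3p, and no seed occurred more than once among them. No seed of a cluster member could be compared, and how often seeds are shared among all miRNAs tested was not counted.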

How the data were processed

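miRNAs of C3H10T1/2 cells were measured on 1-colour Agilent arrays. The authors deposited Feature Extraction output with the background-subtracted intensity of each spot; the series table equals it to within 0.005 signal units and was therefore not a separate alternative. The file headers give Feature Extraction version 10.7.1.1 and build mm9, and the submitters' processing notes give version 9.1. The authors' normalization was not given in the sources used here.

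Control spots and outlier spots were left out and the spots of a probe averaged. A probe was detected where over 50% of its spots were well above background. For scaling, the 174 probes detected on each of the 8 arrays set a 75th percentile per array, by which its values were divided. They were floored at 4.11 (log2), and log2 was taken. The probe with the highest mean was used per miRNA. The WT technical arrays were averaged, and the 6 RNA samples of 3 groups were fitted together (limma 3.58.1, R 4.3.3) (3 residual degrees of freedom, Benjamini-Hochberg over the 142 miRNAs that at least 1 group showed as detected on its every array, threshold 0.05), a step tested on simulated data. The fit drew each variance towards that of all miRNAs tested, which gave 6.89 degrees of freedom for the p-values and intervals. Figures were drawn with matplotlib version 3.10.9. The number of arrays limits the precision.

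The cluster members, the lists and the tests were chosen with earlier results of these data known. The miRNAs named were the cluster members, the 5 most correlated with each, miR-21, miR-221, miR-222, miR-140, and the 3 of each list with the smallest p in each comparison. Both lists were written from general knowledge. Alternatives covered scaling, the signal column, background correction, the floor, the filter, probes, outlier spots, technical arrays, samples, the replicate block, the side of the slide and leaving out each replicate. The other probe, no scaling and a crossed pairing were added after seeing the data. The slide could not be a block, since there was 1.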

Additional observations from a re-analysis of the deposited data

Results flagged for a closer look

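The total gene signal of miR-145-5p, a column used only as an alternative setting, exceeded the sum of its own probes on 4 arrays and on 0 of the 2 control arrays. The excess over the sum of its 2 probe totals was 74.4 signal units on the first array of WT replicate 1, 76.9 and 63.2 on the first and second arrays of WT replicate 2, and 75.003 on MT replicate 1. On these arrays the total of miR-143-3p was 85.9, 84.3, 69.7 and 81.6 signal units.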

How the results depend on the processing

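No difference of either miRNA passed the threshold under any setting except for miR-143-3p without scaling (-0.80 in WT and -0.77 in MT from control, adjusted p = 0.0432 and 0.0338 in limma). The direction turned as follows, and the cause was not tested. With the 75th percentile over all mouse probes, which moved the median of all miRNAs to -0.19, -0.51 and 0.30 in the 3 comparisons, miR-145-5p was at -0.010 (WT minus control), -0.36 (MT minus control) and 0.35 (WT minus MT), and miR-143-3p at 0.16 (WT minus MT). With normexp, miR-143-3p was at 0.075 and 0.12 from control (WT, MT) and miR-145-5p at 0.077 (WT minus MT). Without scaling, miR-145-5p was at -0.14 and -0.30 from control (WT, MT) and 0.16 (WT minus MT). With a term for slide side, which only the 2 WT samples set, miR-145-5p was at -0.077 (MT minus control) and 0.21 (WT minus MT). The other probe put miR-143-3p at 0.031 (MT minus control). For WT against MT, miR-145-5p was also at 0.13 with quantile normalization, 0.47 with the total gene signal, 0.011 with the mean of all probes and 0.0070 with the first technical arrays alone.

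The size from control also moved by over 1.5 times without a turn. miR-145-5p was at 0.14 in MT with quantile normalization, at 0.19 in WT and 0.18 in MT with the mean of all probes, and at 0.13 in WT with a term for slide side. miR-143-3p was at -0.66 in WT and -0.83 in MT with the 75th percentile over all mouse probes. In MT it was also at -0.19 with quantile normalization, -0.20 with the total gene signal, -0.040 with the mean of all probes and -0.24 with a term for slide side. The total gene signal put miR-145-5p at 1.55 in WT and 1.09 in MT.

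With 1 replicate left out, miR-143-3p ranged from -0.39 to -0.22 (WT against control), -0.20 to -0.02 (MT against control) and -0.26 to -0.13 (WT against MT). miR-145-5p ranged from 0.13 to 0.56, 0.32 to 0.39 and, for WT against MT, from -0.22 without WT replicate 1 to 0.21 without WT replicate 2. Under the filter for detection on all 8 arrays miR-145-5p gave no value, and its dimmer probe, at or near the floor, differed by 0.028 (WT minus control), 0 (MT minus control) and 0.028 (WT minus MT).

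limma called 0 miRNAs in each comparison, but between WT and control 22 with normexp, 28 without scaling, 3 with the total gene signal and 1 at 0.5 times the floor. With normexp, limma gave both cluster members the same SE, 0.18, in all 3 comparisons. For MT against control it called 40, 46, 3 and 1 in the same order, 29 of the 103 that every array detected, 11 with a random block for the RNA sample, 1 without a filter (where most miRNAs lie at the floor) and 18 without MT replicate 2, which also gave 1 for WT against MT.

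Same-numbered samples had deviations that correlated at 0.02 (WT and MT), 0.39 (WT and control) and -0.46 (MT and control), so the numbers were not taken to pair them. The replicate block left the differences of miR-143-3p at -0.30, -0.11 and -0.20 and of miR-145-5p at 0.35, 0.36 and -0.01, and called neither miRNA. A crossed pairing of the MT and control samples, added after seeing the data, called 58 of 142 miRNAs, neither cluster member among them.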
